A study of Mus musculus with 4 samples.

Results

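Insl3, Lhcgr, Prlr, Nr5a1 and Nr2f2 were followed across the cell types of mouse testicular organoids (TOs) and mouse testes in single-cell RNA sequencing data. They are 5 of the 32285 genes in the count tables, chosen by name and matched by gene symbol, and all 5 were found. TOs are 3D cultures that rebuild testis-like tissue from dissociated cells of neonatal ICR mouse testes, grown in a medium whose supplements included FSH and testosterone. The data hold 2 TO libraries (TO 1 and TO 2) and 2 libraries from testes of 28-day-old mice (testis 1 and testis 2), all from unsorted cells. The study's text gives the TOs as day 28 of culture, and the deposited dissociation protocol gives day 21. Its methods say that organoids came from independent batches, and nothing says how many animals gave each testis library. p-values below measure the spread between these libraries, and where 1 library was left out, the spread within the remaining pair only.

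INSL3 is a small peptide hormone of the relaxin family that Leydig cells, the steroid-producing cells between the tubules, secrete in step with their maturity. Leydig cells are driven by luteinizing hormone through its receptor, encoded by Lhcgr, and respond to prolactin through the receptor encoded by Prlr. Nr5a1 encodes steroidogenic factor 1, a nuclear receptor that binds promoters of steroidogenic genes in Leydig and Sertoli cells, and Nr2f2 encodes COUP-TFII, a nuclear receptor of stromal cells and Leydig progenitors that has a role in Insl3 transcription.

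The promoters of Insl3 and Lhcgr are shown because nuclear receptors such as those encoded by Nr5a1 and Nr2f2 bind DNA at short motifs of this kind, and because Insl3 differed far more than Lhcgr between the TO libraries. The sequences are from RefSeq (GRCm38.p6), 250 bases before to 50 bases after an annotated start, 5′ to 3′ on the strand of the gene. Capitals mark AAGGTC, the core of the NR5A motif, or AGGTCA, a nuclear receptor half-site, on either strand.
Insl3, chr8:71689002-71689301, plus strand: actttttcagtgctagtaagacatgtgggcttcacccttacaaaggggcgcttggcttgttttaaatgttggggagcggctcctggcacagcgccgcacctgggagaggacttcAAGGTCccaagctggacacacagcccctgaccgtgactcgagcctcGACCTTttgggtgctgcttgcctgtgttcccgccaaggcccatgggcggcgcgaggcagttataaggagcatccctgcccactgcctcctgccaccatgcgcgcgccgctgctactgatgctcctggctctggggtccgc
Lhcgr, chr17:88791965-88792264, minus strand: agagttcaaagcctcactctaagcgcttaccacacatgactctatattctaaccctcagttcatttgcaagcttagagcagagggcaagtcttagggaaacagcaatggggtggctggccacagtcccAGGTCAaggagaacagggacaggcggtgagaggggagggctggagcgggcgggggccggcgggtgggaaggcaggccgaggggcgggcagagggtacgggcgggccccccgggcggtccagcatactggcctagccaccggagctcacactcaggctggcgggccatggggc

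The Insl3 window held AAGGTC at -136 on the plus strand and at -90 on the opposite strand, counted from the start site to the first base of the match on the gene's strand. The Lhcgr window held AGGTCA at -122. Of 32851 promoter windows of this length, 12.3% held AAGGTC and 16.3% held AGGTCA. The motif TGACGTCA, the cAMP response element, was in none of the windows of these genes and in 1.79% of all windows. The Nr2f2 window and the 3 Prlr windows held none of the 3 motifs. AAGGTC was chosen after the Insl3 sequence had been seen, AAGGTC and AGGTCA overlap by 5 letters, and a match is a description of letters only. 4 of the 5 genes had an entry in the promoter table.

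In GRCm38 (GENCODE vM21), Insl3 lies on the plus strand at chr8:71689214-71690575, inside the span of Jak3 on the same strand, and 404 of its 623 exon bases are also exon bases of Jak3. Prlr lies at chr15:10177238-10349180 and shares 203 exon bases with Gm21973 on the same strand. Lhcgr lies at chr17:88716481-88791990, Nr5a1 at chr2:38692656-38714542 and Nr2f2 at chr7:70351944-70366735, all on the minus strand. Nr2f2 shares 643 exon bases with the antisense gene B130024G19Rik. Reads from shared bases on the same strand cannot be assigned to 1 gene, so Insl3 and Prlr counts may be incomplete. Jak3 itself had 7.66, 5.15, 18.7 and 3.83 CPM (UMIs of the gene in the summed cells, scaled to 1000000 UMIs) in Leydig cells of TO 1, TO 2, testis 1 and testis 2.

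After filtering, the libraries held 8713 to 9867 cells with a median of 2549 to 7561 UMIs per cell. Leydig cells numbered 1687 and 1550 in TOs and 566 and 341 in testes, and their sums held 3397866 to 18648200 UMIs. The 5 genes were kept out of the markers and out of the genes used for clustering. The Leydig name rested on Cyp11a1, Hsd3b1, Cyp17a1, Star and Fdx1, all of them detected in the Leydig sums of every library, with summed levels of 7775, 4031, 11516 and 18360 CPM in TO 1, TO 2, testis 1 and testis 2. Spermatid markers summed to 0.441 and 2.14 CPM in the Leydig sums of TOs and to 1151 and 1366 CPM in those of testes. Pairs of libraries shared 21 to 31 cell barcodes.

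Insl3 was mainly a Leydig cell gene in all 4 libraries. Leydig cells held 88.1% and 81.9% of all Insl3 UMIs in TO 1 and TO 2, and 97.4% and 97.7% in testis 1 and testis 2. In Leydig cells its level was 2276 CPM in TO 1, 150.1 CPM in TO 2, 3342 CPM in testis 1 and 1733 CPM in testis 2. TO 1 lay between the testis libraries, and TO 2 lay far below the other 3. The fitted log2 fold change of TOs over testes was -1.14 ± 1.01 (SE, n = 2 per group; edgeR quasi-likelihood test, adjusted p = 0.462). Without TO 1 it was -4.13, and without TO 2 it was -0.22, each with 1 TO library and so no spread among TOs. The size of the difference from testes thus depended on which TO library was used.

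The LH receptor gene Lhcgr had 338 and 269 CPM in TO 1 and TO 2 and 721 and 616 CPM in testis 1 and testis 2. Both TO libraries lay below both testis libraries. The log2 fold change was -1.21 ± 0.28 (SE), with an edgeR adjusted p of 0.0185, outside the limit of 0.01 used here. DESeq2 called it, at -1.14 and an adjusted p of 0.000717. The prolactin receptor gene Prlr had 840.4 and 699 CPM in TOs and 1486 and 1356 CPM in testes, again without overlap. Its log2 fold change was -0.96 ± 0.30 (SE, edgeR adjusted p = 0.0563).

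Nr5a1 had 116 and 80.4 CPM in Leydig cells of TO 1 and TO 2 and 51.7 and 77.7 CPM in those of testis 1 and testis 2. The TO libraries were the higher ones, although TO 2 and testis 2 differed little, and the log2 fold change was 0.52 ± 0.31 (SE, edgeR adjusted p = 0.280). Nr2f2 had 449 and 463 CPM in TOs and 314 and 207 CPM in testes. The groups did not overlap, with a log2 fold change of 0.74 ± 0.29 (SE, edgeR adjusted p = 0.111). A gene was called where its log2 fold change exceeded 1 in size and its adjusted p lay under 0.01. 0 of the 5 genes passed with edgeR and 1, Lhcgr, with DESeq2, which called 2916 of 24547 genes. Over all 15451 genes tested by edgeR in Leydig cells, 14.1% were called, with 2.00% higher and 12.1% lower in TOs. With every gene of any count kept, edgeR called 0 of 24547 genes, of which 6958 had an unadjusted p under 0.05. Before adjustment 3 of the 5, namely Lhcgr, Prlr and Nr2f2, passed a threshold of 0.05 with edgeR, against 5560 of all 15451 genes tested.

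**Figure D1:**
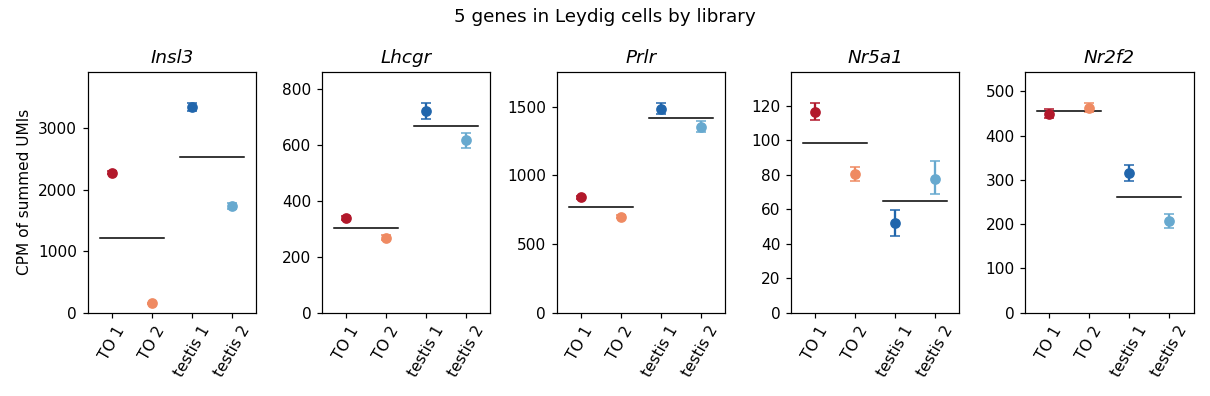
Level of each gene in Leydig cells, in CPM of summed UMIs on a linear axis from 0, with 1 point per library, bars for the exact 95% Poisson interval and a black line for the mean of each pair. Insl3 in TO 2 stands at 150.1 CPM against 1733 to 3342 CPM in testes, while Lhcgr and Prlr of both TO libraries stand below both testis libraries and Nr2f2 above.

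Insl3 was the exception when the TO libraries were set against each other. In Leydig cells its level in TO 1 was 15.2 times that in TO 2 (exact 95% interval 14.6 to 15.8). The receptors differed far less. Lhcgr was 1.26 times higher in TO 1 (1.21 to 1.31) and Prlr 1.20 times higher (1.17 to 1.23). Nr5a1 was 1.45 times higher in TO 1 (1.35 to 1.55), and the ratio of Nr2f2 was 0.971 (0.942 to 1.00). These intervals cover counting error only, and with 1 library on each side there is no test. Of the 9190 genes with at least 10 CPM in either library, 4.73% differed by more than a log2 fold of 1, and 3.07% did so with the higher level in TO 1. Insl3 ranked 5th among them by the size of the excess in TO 1, and 1 of the 5 genes was past that fold. The size of the log2 ratio exceeded that of 82.3% of the compared genes for Nr5a1. This share was 63.5% for Lhcgr, 53.9% for Prlr and 9.43% for Nr2f2.

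Between the testis libraries, Insl3 in Leydig cells was 1.93 times higher in testis 1 than in testis 2 (1.87 to 1.99). Lhcgr was 1.17 times higher and Prlr 1.10 times higher in testis 1. The ratio was 0.665 for Nr5a1 and 1.52 for Nr2f2. No gene of the 5 was past a log2 fold of 1 there, against 12.2% of the 9970 genes compared, with 8.66% higher in testis 1 and 3.56% in testis 2. The Lhcgr and Prlr ratios between the TO libraries thus lay near those between the testis libraries, whose intervals overlapped theirs for Lhcgr (1.10 to 1.24) but not for Prlr (1.05 to 1.14).

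**Figure D2:**
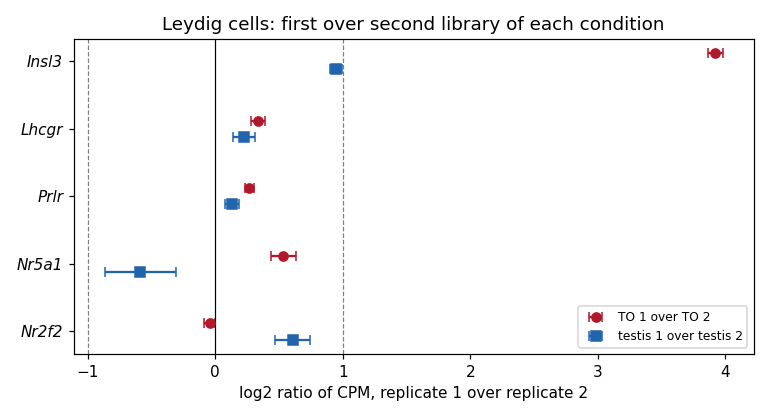
Log2 ratio of the CPM in Leydig cells of the first over the second library, for TOs (red circles) and testes (blue squares), with exact 95% intervals for counting error and dashed lines at a log2 ratio of 1 in each direction. Insl3 in TOs stands at 3.92, and every other ratio lies between -0.59 and 0.95.

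The low Insl3 level of TO 2 was present in each Leydig cluster. In the largest, which held 1173 of the TO 1 and 1184 of the TO 2 Leydig cells, Insl3 had 1844 CPM in TO 1 and 120.0 CPM in TO 2. In the next, led by Klk1b27, Sult1e1 and other genes and holding 474 and 321 TO cells, it had 2962 and 230.2 CPM. In the smallest, with 40 and 45 TO cells, it had 3501 and 317 CPM. Lhcgr in the same clusters had 315, 380.2 and 265 CPM in TO 1 and 238, 363 and 165 CPM in TO 2. Prlr had 856, 835 and 172 CPM in TO 1 and 668, 818 and 121 CPM in TO 2. Most testis Leydig cells, 533 of 566 and 290 of 341, were in the largest cluster, where Insl3 had 3263 and 1750 CPM.

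The difference in Insl3 was also spread over the cells. After each cell was thinned to 1500 UMIs, the median Leydig cell held 2 Insl3 UMIs in TO 1, 0 in TO 2, 4 in testis 1 and 2 in testis 2. Cells with no Insl3 UMI made up 31.8% of TO 1, 84.6% of TO 2, 7.77% of testis 1 and 14.7% of testis 2. No TO 2 cell held 10 or more Insl3 UMIs, against 6.84% of the TO 1 cells, and the highest TO 2 cell held 4. The Leydig cells of TO 2 were not the shallower ones, with a median of 12410 UMIs against 10809 in TO 1.

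**Figure D3:**
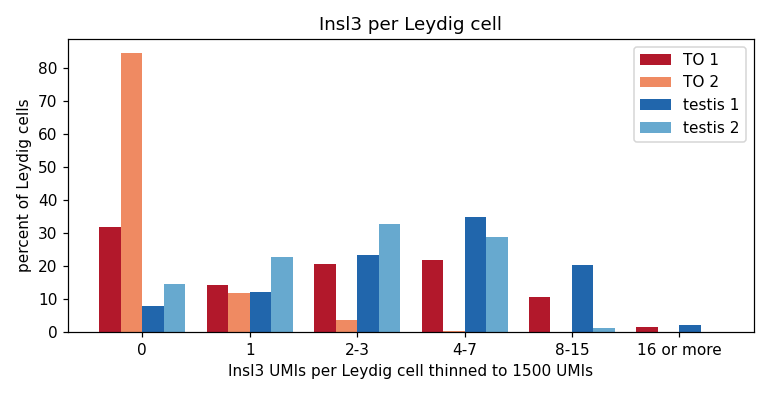
Percent of Leydig cells (linear axis from 0) by the number of Insl3 UMIs after thinning to 1500 UMIs per cell, with 1 bar per library. Cells without an Insl3 UMI make up 84.6% of TO 2 and 7.77% to 31.8% of the other libraries.

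Shares of Leydig cells with a UMI after thinning put both TO libraries below both testis libraries for Insl3, whereas its CPM in TO 1 lay between the testes. For Insl3 they were 68.2% in TO 1 (exact 95% interval 65.9 to 70.4), 15.4% in TO 2 (13.7 to 17.3), 92.2% in testis 1 and 85.3% in testis 2. In spermatids, which should lack the gene, 10.9% of 92 cells in TO 1 and 1.49% of 67 cells in TO 2 had an Insl3 UMI, and 1.54% and 0.665% in testes, at median depths of 2717, 4118, 2061 and 2912 UMIs. For Lhcgr the Leydig shares were 32.1% and 25.03% in TOs and 57.8% and 58.1% in testes, and for Prlr 63.2% and 55.5% in TOs and 84.5% and 84.8% in testes. The spermatid shares of both receptors were at most 4.35%. Nr5a1 was found in 13.4% and 11.5% of TO and 7.42% and 13.2% of testis Leydig cells, and Nr2f2 in 44.8% and 48.6% of TO and 32.7% and 27.3% of testis Leydig cells. Without thinning, Insl3 was found in 83.3% and 48.6% of TO and 97.7% and 97.4% of testis Leydig cells. The exact two-sided permutation test over libraries gave p = 0.333 for Insl3, Lhcgr, Prlr and Nr2f2, the smallest that 2 against 2 allows, and p = 0.667 for Nr5a1.

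Within each TO library, the shares of Leydig cells with a receptor transcript differed by a few percentage points between cells with and without an Insl3 UMI. In TO 1, Lhcgr was found in 33.8% of 1147 cells with an Insl3 UMI (exact 95% interval 31.1 to 36.6) and in 28.4% of 535 cells without one (24.6 to 32.4). Prlr was found in 65.1% and 59.1% of these cells, and Nr5a1 in 14.6% and 10.8%. In TO 2, Lhcgr was found in 25.9% of 239 cells with an Insl3 UMI and in 24.9% of 1311 without one, and Prlr in 61.1% and 54.5%. Nr5a1 was found in 10.9% and 11.7% of these TO 2 cells, the opposite order to TO 1. Over the thinned Leydig cells, Pearson's r of Lhcgr with Insl3 UMIs was -0.00273 in TO 1 and -0.00478 in TO 2. Nr2f2 had its lower share beside Insl3 in TO 2, at 39.7% of cells with an Insl3 UMI (33.5 to 46.3) and 50.2% of those without one (47.4 to 52.9). In testes few Leydig cells lacked an Insl3 UMI. Lhcgr was found in 58.0% of 522 cells with one and 54.5% of 44 without one in testis 1, and in 56.0% of 291 and 70.0% of 50 in testis 2, the opposite order. Cells of 1 library are not replicates, so these shares are a description.

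Downstream of the LH receptor, 18 genes of G protein, cAMP and protein kinase A signalling were examined in Leydig cells, and all 18 were tested. None was called higher and 2 were called lower in TOs, a share no larger than the 12.1% called lower over all genes, and the median log2 fold change was -0.27 against -0.03 over all genes. Prkar2b, a regulatory subunit of protein kinase A, had 14.6 and 20.9 CPM in TOs and 70.1 and 66.2 CPM in testes, and fell by 2.02 ± 0.27 (SE, log2, edgeR adjusted p = 0.00205). Crem, a transcription factor of the cAMP response that germ cells also use, had 23.7 and 21.5 CPM in TOs and 100.3 and 50.3 CPM in testes (log2 fold change -1.80, adjusted p = 0.00716). Without testis 1 the Crem change was -1.20 (adjusted p = 0.0204), and without TO 2 it was -1.73 (adjusted p = 0.0146). The call was also lost in sums thinned to the smallest library (0.0118) and with cells named one by one (0.0132). Spermatid markers, given above, were likewise lower in the Leydig sums of TOs, and their part in the Crem result was not tested. Between the TO libraries, 0 of the 11 list genes compared were past a log2 fold of 1, against 4.73% over all genes. The list is too short to set 0 apart from that share.

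Of 14 genes of prolactin and JAK-STAT signalling, 13 were tested, with 0 called higher and 1 called lower, a smaller share than the 12.1% called lower over all genes. Socs2, a feedback inhibitor that cytokine receptors induce through STAT5, had 1.16 and 0.80 CPM in Leydig cells of TOs and 11.7 and 10.0 CPM in those of testes, and fell by 3.53 ± 0.48 (SE, log2, edgeR adjusted p = 0.00225). The list's median log2 fold change was -0.09. Between TO 1 and TO 2, 0 of the 9 genes compared were past a log2 fold of 1, against 4.73% over all genes, and this list is likewise too short.

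The called transcription regulators of Leydig cells were higher in TOs. Of 31 genes, 28 were tested, 4 were called higher and 0 lower in TOs, against 2.00% and 12.1% over all genes, and the list's median log2 fold change was 0.64. Zfpm2, a cofactor of GATA factors, had 67.6 and 140.3 CPM in TOs and 9.49 and 7.95 CPM in testes (log2 fold change 3.50 ± 0.42 (SE), edgeR adjusted p = 0.00143). Gata4, a GATA factor of testis somatic cells, had 255 and 316 CPM in TOs and 102 and 89.5 CPM in testes, a log2 fold change of 1.501 (adjusted p = 0.00548). Hes1, a Notch target, had 74.6 and 69.6 CPM in TOs and 17.3 and 8.54 CPM in testes (log2 fold change 2.41, adjusted p = 0.00239). Smad3, a mediator of TGF-beta signalling, had 17.4 and 28.8 CPM in TOs and 5.58 and 2.65 CPM in testes (2.41, adjusted p = 0.00889). The Gata4 call was lost without TO 2 (adjusted p = 0.0261), without testis 1 (0.0142) and without testis 2 (0.0259), and the Smad3 call without TO 2 (0.0241) and without testis 2 (0.0347). With the replicate number as a block, the adjusted p was 0.0104 for Gata4 and 0.0203 for Smad3. The Smad3 call was also lost in sums thinned to the smallest library and with cells named one by one. Between the TO libraries, Klf4, Fos and Klf6, named after their values were seen, were past a log2 fold of 1 in favour of TO 1 (1.96, 1.11 and 1.06), and Zfpm2 in favour of TO 2.

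Of 6 relaxin family genes other than Insl3 and relaxin family receptors, 1 passed the filter on low counts. This was Insl6, a relative of Insl3 known from male germ cells, with 13.9 and 7.56 CPM in Leydig sums of TOs and 62.0 and 57.4 CPM in those of testes (log2 fold change -2.55 ± 0.34 (SE), edgeR adjusted p = 0.00195). The germ cell markers given above moved in the same direction, and their part in the Insl6 result was not tested.

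The steroidogenic genes included larger differences than the receptors showed. All 13 were tested, 0 were called higher and 4 lower, against 12.1% lower over all genes, with a median log2 fold change of -1.41. Star, which carries cholesterol to the inner mitochondrial membrane, had 36.6 and 10.8 CPM in TOs and 399 and 718 CPM in testes, and fell by 4.65 ± 0.65 (SE, log2, edgeR adjusted p = 0.00250). Hsd3b6, the 3-beta-hydroxysteroid dehydrogenase of adult Leydig cells, had 23.5 and 75.3 CPM in TOs and 638 and 872 CPM in testes (log2 fold change -4.01, adjusted p = 0.00300). Scarb1, a lipoprotein receptor for cholesterol uptake, fell by 2.10 on the log2 scale (adjusted p = 0.00566), and Fdx1, an electron carrier to mitochondrial P450 enzymes, by 1.80 (adjusted p = 0.00797). The Fdx1 call was lost without TO 2, testis 1 or testis 2, and with the replicate number as a block (edgeR adjusted p = 0.0106). It was also lost without upper limits on cells and with cells named one by one. Star and Fdx1 were among the markers that named Leydig cells.

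Several steroidogenic and adult Leydig genes also stood high in the order of TO 1 over TO 2, among genes of neither list. Cyp17a1, the 17-alpha-hydroxylase of androgen synthesis, had 1170.2 CPM in TO 1, 82.0 CPM in TO 2 and 3818 and 11044 CPM in testes, with a rank of 6th, next to Insl3. Its TO against testis change of -3.68 ± 1.17 (SE, log2, edgeR adjusted p = 0.0610) was not called. Of 12 steroidogenic genes compared between the TO libraries, 4 were past a log2 fold of 1 with the higher level in TO 1, namely Cyp17a1 (3.82), Hsd17b3 (2.86), Star (1.67) and Cyp11a1 (1.04), and Hsd3b6 in favour of TO 2. Over all genes compared, 3.07% were past it in favour of TO 1 and 1.66% in favour of TO 2. Of 9 genes of adult Leydig cells, 6 were past that fold with the higher level in TO 1, with Ptgds at 367.5 and 26.2 CPM and Sult1e1 at 1436 and 119.7 CPM. These last genes also differed between testes: Ptgds had 6.98 and 537 CPM and Sult1e1 7.26 and 519 CPM in testis 1 and testis 2. Against testes, 2 of the 9 adult Leydig genes were called, both lower in TOs, where 12.1% of all genes were called lower. These were Hsd3b6, given above, and Bhmt, an enzyme of methionine metabolism, with 52.8 and 45.2 CPM in TOs and 381.5 and 248.98 CPM in testes (log2 fold change -2.76, adjusted p = 0.000979). Of the 13 genes called in these lists, 0 were called when genes of any count were kept. When genes at least 5 times higher in the other cells were left out, Socs2 was not tested and 1 of the other 12, Bhmt, was called. The changes themselves stayed near their size, with Star at -4.50 and -4.70 (adjusted p = 0.0381 and 0.0149) and Zfpm2 at 3.65 and 3.41 (adjusted p = 0.0260 and 0.0102) under these 2 settings. The names of this paragraph other than Hsd3b6 and Bhmt were chosen after the values were seen.

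Of 11 progenitor and stromal genes, 7 were tested in Leydig cells and 0 were called by edgeR, against 14.1% over all genes. The list is too short to set 0 apart from that share. The 2 with the highest level are given. Vim, an intermediate filament of mesenchymal cells, had 234 and 280.0 CPM in TOs and 874 and 322 CPM in testes (log2 fold change -1.27, adjusted p = 0.0838). Lifr, a cytokine receptor, had 304 and 220.4 CPM in TOs and 168 and 244 CPM in testes (0.26, adjusted p = 0.595).

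Outside Leydig cells, the receptors and regulators had orders of their own. Lhcgr was confined in the main to Leydig cells, which held 95.5% and 96.4% of its UMIs in TOs and 96.7% and 96.0% in testes. In testes the next type was other somatic cells, a class of peritubular and stromal cells, at 10.2 and 16.9 CPM. The smallest cluster of this class had 36.1 and 83.3 CPM in testes (21 and 39 UMIs) and 2.55 and 0 CPM in TOs. Its largest cluster had 5.95 and 4.03 CPM in testes and 9.25 and 5.56 CPM in TOs. The next had 3.08 and 1.97 CPM in testes and 7.91 and 2.58 CPM in TOs. The remaining cell types of testes did not differ from their neighbours in the order beyond their spread. Prlr had a second site in other somatic cells, with 154 and 206 CPM in TOs and 88.1 and 105.0 CPM in testes, and its other types stayed at or below 57.1 CPM. Nr2f2 was highest in other somatic cells, at 1183 and 1205 CPM in TOs and 611 and 749 CPM in testes, and Leydig cells came next in both conditions. Nr5a1 was highest in Leydig cells and next in Sertoli cells, the nurse cells of the tubules, which had 40.5 and 42.4 CPM in TOs and 36.5 and 47.8 CPM in testes. Leydig and Sertoli ranges of Nr5a1 did not overlap in either condition, and they came close in testes, at 51.7 CPM for the lower Leydig and 47.8 CPM for the higher Sertoli library. Endothelial cells, with 68 and 79 cells in TOs, had 5 to 19 Nr5a1 UMIs per library.

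**Figure D4:**
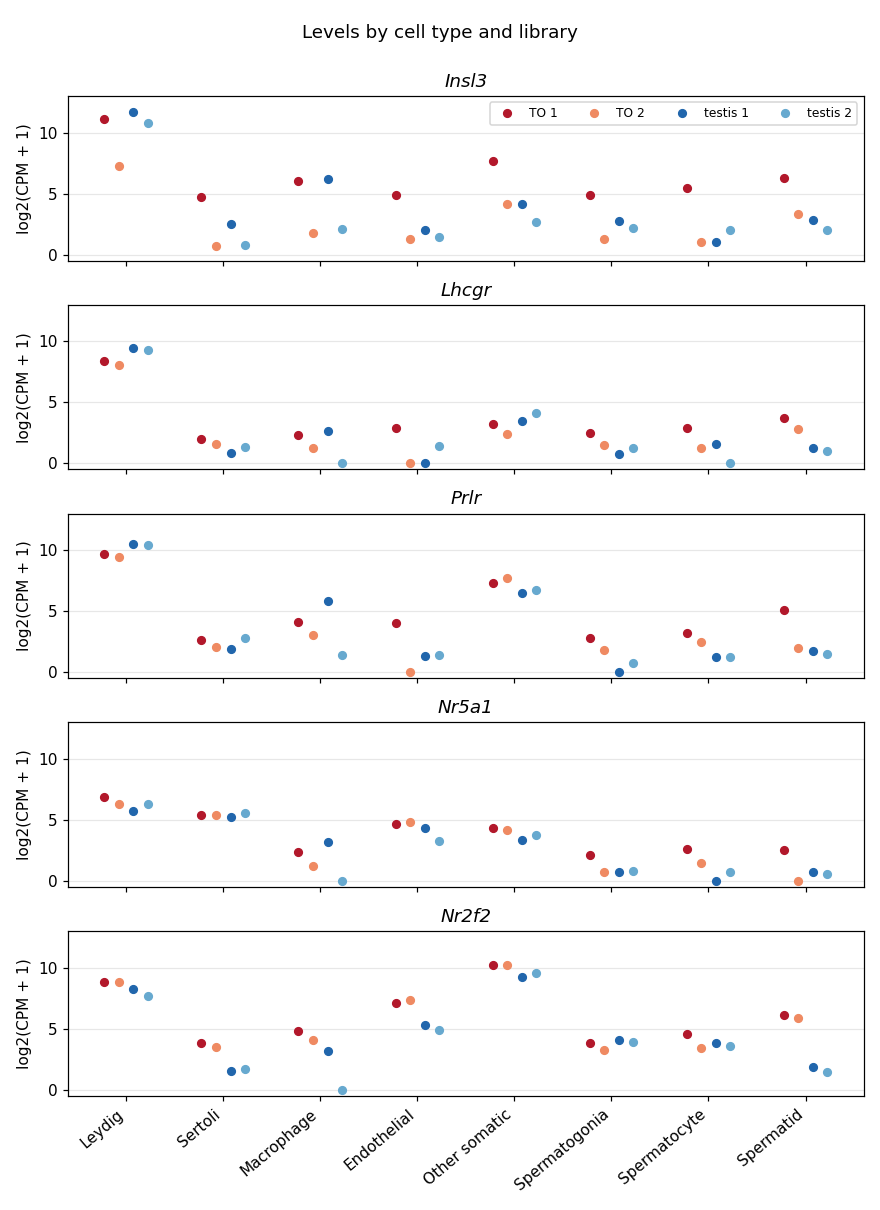
Level of each gene as log2(CPM + 1) in the 8 named cell types, with 1 point per library. Within testes, Insl3, Lhcgr, Prlr and Nr5a1 are highest in Leydig cells, and Nr2f2 is highest in other somatic cells, with Leydig cells second.

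Outside Leydig cells, Insl3 was again higher in TO 1 than in TO 2. Other somatic cells had 206 CPM in TO 1, 17.1 CPM in TO 2, 16.4 CPM in testis 1 and 5.51 CPM in testis 2. This was 9.06% and 11.4% of the Leydig level in TOs and 0.492% and 0.318% in testes. The Leydig gene Cyp11a1 reached 2.44% and 1.09% of its Leydig level in the same cells of TOs and 0.208% and 0.131% in testes. Hsd3b1 reached 2.44% and 1.04% in TOs. Cyp17a1 reached 3.52% and 0.670% in TOs and 0.187% and 0.156% in testes. In Sertoli cells Insl3 was at 1.11% and 0.447% of the Leydig level in TOs, where Cyp11a1 was at 1.34% and 1.14%. After thinning, 20.8% of other somatic cells in TO 1 (exact 95% interval 19.8 to 21.97) and 2.59% in TO 2 had an Insl3 UMI, against 10.9% (5.34 to 19.1) and 1.49% of spermatids. These Leydig genes moved with Insl3 between TOs and testes, and the part of free Leydig cell RNA in the Insl3 levels was not tested.

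In other somatic cells, 0 of the 5 genes were called between TOs and testes by edgeR, against 22.3% of the 17234 genes tested and 2.82% called higher in TOs. DESeq2 called 1 of the 5, Prlr, and 4695 of 25884 genes in all. Prlr had a log2 fold change of 1.02 ± 0.24 (SE, edgeR adjusted p = 0.0157, DESeq2 adjusted p = 0.00218), with both TO libraries above both testis libraries. The clusters of this class differed. In the largest, Prlr had 199 and 241 CPM in TOs and 193 and 219 CPM in testes, with overlap. In the next it had 111 and 149 CPM in TOs and 17.0 and 13.8 CPM in testes. Nr2f2 had 0.92 ± 0.27 (SE, edgeR adjusted p = 0.0349) and Nr5a1 0.83 ± 0.29 (SE, adjusted p = 0.0611). Insl3 had 3.36 ± 1.11 (SE, edgeR adjusted p = 0.0506), 4.23 without TO 2 and 0.77 without TO 1. Without TO 1 the Prlr change was 1.24. With the replicate number as a block, the Insl3 change was 3.07 (adjusted p = 1.71e-06). Before adjustment 4 of the 5, all but Lhcgr, passed a threshold of 0.05 with edgeR, against 8299 of all 17234 genes tested.

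In Sertoli cells, 1 of the 5 genes was called, against 30.1% of the 14494 genes tested and 9.20% called higher in TOs. This was Nr2f2, with 190 and 79 UMIs (13.1 and 10.6 CPM) in TOs and 5 and 3 UMIs (1.94 and 2.21 CPM) in testes, and it rose by 2.62 ± 0.41 (SE, log2, edgeR adjusted p = 0.00197). The call was lost without TO 1 (adjusted p = 0.0121) and without testis 1 (0.0111). Most Sertoli cells of testis 2 were in another cluster than those of TOs, with 21 of 253 in the largest Sertoli cluster. Spermatids of TOs, which should lack the gene, had 67.8 and 57.1 CPM of Nr2f2 (28 and 19 UMIs), above the Sertoli level. Those of testes had 2.62 and 1.66 CPM. Other germ cells had no such gap. Spermatogonia had 13.4 and 8.45 CPM in TOs and 15.5 and 13.7 CPM in testes. Spermatocytes had 22.6 and 9.93 CPM in TOs and 13.1 and 10.9 CPM in testes. The part of RNA from other cells in the Sertoli result was not tested. Nr5a1 in Sertoli cells had a log2 fold change of 0.09 ± 0.21 (SE, adjusted p = 0.751).

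**Figure D5:**
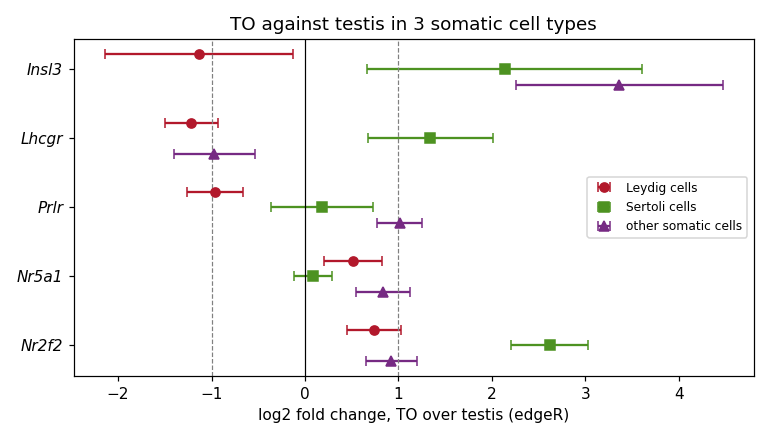
Log2 fold change of TOs over testes from edgeR in Leydig (red circles), Sertoli (green squares) and other somatic cells (purple triangles), with bars for 1 SE and dashed lines at 1 in each direction. Lhcgr and Prlr stand at -1.21 and -0.96 in Leydig cells, Nr2f2 at 2.62 in Sertoli cells, and Insl3 has the widest bars.

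Whether the TO against testis difference itself differed between cell types was tested with the library as a block. For Insl3 the difference was lower in Leydig than in other somatic cells by 4.53 ± 0.29 on the log2 scale (SE, edgeR adjusted p = 0.00127), and lower in Leydig than in Sertoli cells by 2.94 ± 0.54 (SE, adjusted p = 0.00583). Over all genes tested, 2.31% and 5.75% were called in these comparisons, and the median differences were 0.29 and 0.24. Without testis 1 or testis 2, the comparison with other somatic cells had an adjusted p of 0.0134 and 0.0131, and that with Sertoli cells 0.0384 and 0.0283. Without TO 1, the comparison with Sertoli cells had 0.128. Sertoli cells of TO 2 and testis 2 held 5 and 1 Insl3 UMIs. For Prlr the difference between Leydig and other somatic cells, whose clusters differed as given above, was -1.70 ± 0.30 (SE, edgeR adjusted p = 0.0182). DESeq2 called it at -1.93 (adjusted p = 2.52e-05), and without TO 1 it was -2.09 with edgeR. For Lhcgr the difference between Leydig and Sertoli cells was -2.36 ± 0.55 (SE, edgeR adjusted p = 0.0173), and for Nr2f2 -1.74 ± 0.44 (SE, adjusted p = 0.0244). Sertoli cells held 42 and 15 Lhcgr UMIs in TOs and 2 and 2 in testes. In TOs their Lhcgr level was 0.854% and 0.750% of the Leydig level. The part of free Leydig cell RNA in the Lhcgr difference was not tested.

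Over 32 sums of 8 cell types and 4 libraries, the genes whose log2(CPM + 1) followed Insl3 most closely, of 11095 compared, were Cyp11a1 (Pearson r = 0.91), Lhcgr (0.88) and Klk1b24 (0.88). For Lhcgr they were Hao2 (0.91), Prlr (0.91) and Akr1cl (0.90), and for Prlr Aqp2 (0.95), Vcam1 (0.93) and Akr1cl (0.93). Nr5a1 was followed most closely by Prcd (0.96), Gm49708 (0.94) and Tmem35a (0.93), and Nr2f2 by Cald1 (0.94), Ror1 (0.93) and Pde5a (0.92). Among the 5 genes, r was highest for Lhcgr with Prlr, at 0.91, and lowest for Nr5a1 with Nr2f2, at 0.52. The sums of 1 library share its depth and free RNA, so these values describe the sums only.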

How the data were processed

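Single-cell 3′ gene expression was measured in 2 TO and 2 testis libraries of unsorted cells. The deposited files hold UMI counts per gene and cell barcode, which the authors made with Cell Ranger 7.1.0 on mm10, per the submitters' processing notes. The annotation release is not given in the sources used here. Positions were taken from GENCODE vM21, which held 32158 of the 32285 gene identifiers.

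The filter on cells required 1000 to 5000 detected genes, no more than 20000 UMIs, and a mitochondrial share of 10% or less. Doublets were removed as the highest Scrublet scores, 0.8% per 1000 barcodes, where the study used DoubletFinder. Cells were clustered on 2000 variable genes, 30 principal components, Harmony over libraries, 20 neighbours and Leiden resolution 1, and clusters were named by markers. The 5 genes described took no part in clustering or naming, whereas the study counts Insl3 among its Leydig markers, so the cell names are rebuilt ones.

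Raw UMIs were summed per library and cell type and tested with edgeR's quasi-likelihood test (TMM, filterByExpr, Benjamini-Hochberg adjustment, no replicate block), within each type for TO against testis and over types with the library as a block. A lone library left by leaving another out is assumed to vary like the other group. DESeq2 and the other alternatives are given at the end. CPM scales a gene's UMIs to the total of its sum, and intervals cover counting error only. Both statistical steps were tested on simulated data.

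The members, the gene lists and the tests were chosen with earlier results of these data known. Named from each list were the genes called in Leydig cells, up to 4 by size of change, or the 2 of highest level where none was called, and for each of the 5 genes the 3 of highest correlation. Pooling of animals per library is not stated. Versions were Python 3.11.15, scanpy 1.11.5, leidenalg 0.10.2, scipy 1.17.1, R 4.3.3, edgeR 4.0.16 and DESeq2 1.42.0.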

Additional observations from a re-analysis of the deposited data

Results flagged for a closer look

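Over all 4 libraries, the fitted TO against testis difference of Insl3 was lower in Leydig cells than in Sertoli and other somatic cells. The log2 fold change in Leydig cells minus that in Sertoli cells was -2.94 (edgeR adjusted p = 0.00583), and minus that in other somatic cells -4.53 (adjusted p = 0.00127), by the test of the difference itself. In Leydig cells 3 of the 4 pairings of a TO with a testis library had the lower Insl3 level in the TO library. In other somatic cells the TO library had the higher level in all 4. Sertoli cells had no such order, with 25.2 CPM in TO 1, 0.671 CPM in TO 2, 4.66 CPM in testis 1 and 0.735 CPM in testis 2. Those of TO 2 and testis 2 held 5 and 1 Insl3 UMIs. The part of free Leydig cell RNA in these levels was not tested.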

How the results depend on the processing

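Of 298 alternatives for the 5 genes, 254 were counted as unchanged. For the fits this means the same direction and side of the threshold. For the ratios of TO 1 to TO 2 it means a value inside the main counting interval, and for cell shares the same direction. Where an alternative changed, the cause was not tested. With every gene of any count kept, edgeR called 0 genes in Leydig cells and 6000 in other somatic cells, and 2206 and 1797 for the differences of Leydig from Sertoli and from other somatic cells. Leaving out genes higher in other cells left 124 calls in Leydig cells. DESeq2 called 972 genes for the difference from other somatic cells. Of these, 50.6% had the higher TO over testis change in Leydig cells, against 71.8% with edgeR. For the difference from Sertoli cells the shares were 39.3% and 54.5%. In Leydig cells DESeq2 gave -1.14 for Lhcgr. In Sertoli cells Insl3 was 2.30 with any count, and Nr5a1 turned to -0.13 in thinned sums, -0.12 without Harmony and -0.11 with cells named one by one. In other somatic cells, genes of any count gave 3.50 for Insl3, 1.16 for Prlr and 1.07 for Nr2f2, DESeq2 gave 1.04 for Prlr, and Lhcgr turned to 0.76 without Harmony. For the difference from Sertoli cells, any count gave -2.36 for Lhcgr and -1.74 for Nr2f2. For that from other somatic cells, any count gave -1.72 for Prlr, and DESeq2 gave -1.93 for Prlr, -0.18 for Lhcgr and -0.13 for Nr2f2. Between TO 1 and TO 2, the log2 ratio of Insl3 was 3.78 without upper limits on cells and 3.87 with doublets kept, that of Lhcgr 0.23 and that of Prlr 0.17 without upper limits, and that of Nr2f2 0.019 with cells named one by one.

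Leaving out 1 library moved the calls between 1379 and 1865 in Leydig, 3289 and 4391 in Sertoli and 1965 and 4060 in other somatic cells, the lowest each time without testis 1. The differences had 544 to 1093 calls from Sertoli and 25 to 932 from other somatic cells, with 25 without testis 1, 26 without testis 2 and 932 without TO 1, and 544 and 581 without testis 1 and TO 2. Insl3 ran from -4.13 to -0.22 in Leydig, -2.01 to 4.20 in Sertoli (3.06 and called without TO 2) and 0.77 to 4.41 in other somatic cells. In Sertoli cells Prlr ran from -0.41 to 0.74 (-0.28 without TO 1), Nr5a1 from -0.15 to 0.28 and Nr2f2 from 2.46 to 2.73. In other somatic cells Prlr ran from 0.70 to 1.24. The difference from Sertoli cells ran from -4.37 to -2.03 for Insl3. That from other somatic cells ran from -4.92 to -4.27 for Insl3, -2.09 to -1.27 for Prlr, -0.43 to 0.49 for Lhcgr (-0.17 without TO 2), -0.29 to 0.21 for Nr5a1 (0.02 without testis 2) and -0.34 to 0.54 for Nr2f2.

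With the replicate number as a block, edgeR called 1840, 4567 and 5015 genes in Leydig, Sertoli and other somatic cells, and Insl3 was -2.12, 2.30 and 3.07, called in the last 2 types. The labels give only a number, and same-numbered libraries deviated together with r = 0.0166, 0.258 and 0.237 in these types, over 2 pairs, so the numbers are not taken as a pairing.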

Other observations

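Genes outside the lists whose Leydig level parted most between the TO libraries included those ranked above Insl3. Ly6d, which encodes a cell surface protein, had 68.8 CPM in TO 1 and 0.322 CPM in TO 2. Tmsb15b1, a thymosin gene, had 96.0 and 1.56 CPM, and Klk1b1, a kallikrein gene, had 52.3 and 0.643 CPM. Firre, a long noncoding RNA gene, had 21.9 CPM in TO 1 and no UMI in TO 2. Below Insl3 and Cyp17a1 stood Hp, which encodes the haemoglobin-binding protein haptoglobin, with 28.3 and 1.45 CPM, and the seminal vesicle secretory genes Svs5, with 226 and 21.3 CPM, and Svs6, with 42.8 and 3.32 CPM. These genes were chosen after their values were seen, and with 1 library on each side there is no test.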
